A study of Homo sapiens with 6 samples.

Results

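The genes that build cholesterol and fatty acids, together with the proteins that set their transcription, were followed after knockdown of Matrin3. The set held 30 named genes in 3 classes: 18 sterol enzymes, 6 genes grouped as SREBP regulators and STARD4, and 6 fatty acid enzymes. The genes were taken by name and pathway, and the rule used no measured value, but the set was chosen with earlier results of these data known. Of these, 29 had a row among the 56632 genes of each table, and ACACA, which encodes an acetyl-CoA carboxylase, had no matching identifier and is given no value here.

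HCT116, an established human colorectal cancer cell line, received either an siRNA pool against Matrin3 (siMatrin3, 3 libraries) or a negative control siRNA (siCTRL, 3 libraries). Matrin3, the product of MATR3, is a nuclear RNA-binding protein, and the question put to this gene set was whether its mRNA levels differed once Matrin3 was reduced. Both groups were transfected a second time 72 h after the first transfection, and the labels give 48 h for the period after that, while the methods describe reseeding and a later harvest. Knockdown was transient and partial, and the replicates are described as biological triplicates of a single line, so p-values measure the spread between these libraries.

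Cholesterol is assembled from acetyl-CoA through mevalonate, isoprenoid diphosphates and squalene, and the last enzymes reshape lanosterol into cholesterol. Palmitate is built by fatty acid synthase, then elongated and desaturated. Both pathways are governed by SREBP transcription factors, which are made as membrane-bound precursors in the endoplasmic reticulum. When sterols are scarce, SCAP escorts the precursors to the Golgi for cleavage, and when sterols are plentiful INSIG proteins hold SCAP back, so that the target genes tend to rise and fall as a block. On promoters SREBPs are known to act beside the general factors NF-Y and Sp1.

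Promoter sequences were taken from RefSeq (build GRCh38.p14; 250 bases before to 50 bases after the start of each gene), and 26 of the 30 genes matched. ACAT2, FDFT1, SQLE and FASN had no sequence and were not searched. Each of the 26 promoters was searched on both strands for a sterol regulatory element core (TCACNCCAC), the NF-Y box (CCAAT), the Sp1 box (GGGCGG) and the E-box (CACGTG). The 3 promoters below, with the element core and the NF-Y box of either strand in capitals, are shown because SREBF2 held the element core, MVK held the NF-Y box at 5 positions, as did NSDHL, and STARD4 had the lowest fold change of the set. SREBF2 is at chr22:41832855-41833154 on the plus strand, MVK at chr12:109573544-109573843 on the plus strand, and STARD4 at chr5:111512486-111512785 on the minus strand, each printed in the direction of the gene.
SREBF2: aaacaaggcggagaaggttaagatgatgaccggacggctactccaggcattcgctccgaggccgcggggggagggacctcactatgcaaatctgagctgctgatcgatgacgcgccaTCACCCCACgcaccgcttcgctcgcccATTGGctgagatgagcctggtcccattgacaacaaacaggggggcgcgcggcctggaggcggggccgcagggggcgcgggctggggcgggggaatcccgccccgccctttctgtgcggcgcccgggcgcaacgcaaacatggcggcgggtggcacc
MVK: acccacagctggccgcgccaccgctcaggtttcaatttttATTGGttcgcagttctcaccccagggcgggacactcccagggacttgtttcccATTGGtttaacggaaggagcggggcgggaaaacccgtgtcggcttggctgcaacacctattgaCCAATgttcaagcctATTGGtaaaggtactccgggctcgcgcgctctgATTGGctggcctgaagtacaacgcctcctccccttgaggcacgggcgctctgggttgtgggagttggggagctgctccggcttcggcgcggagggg
STARD4: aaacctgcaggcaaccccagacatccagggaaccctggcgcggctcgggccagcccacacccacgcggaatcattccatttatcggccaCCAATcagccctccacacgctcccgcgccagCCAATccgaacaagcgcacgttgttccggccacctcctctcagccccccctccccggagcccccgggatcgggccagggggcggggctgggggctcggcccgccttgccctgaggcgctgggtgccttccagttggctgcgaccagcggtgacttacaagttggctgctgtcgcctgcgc

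In SREBF2 the core began 133 bases before the start (position -133, as TCACCCCAC) and the NF-Y box followed at -106. In MVK the NF-Y boxes began at -210, -157, -94, -79 and -46, and in STARD4 at -161 and -130. SREBF2 was the single promoter of the 26 with the element core (3.85%), against 1.15% of 27305 promoters of the same length. Only the pattern TCACNCCAC was searched for, so elements that depart from its fixed letters were not counted. The NF-Y box was in 16 of the 26 (61.5%), against 35.7% of all promoters. By class it was in 12 of the 15 sterol enzyme promoters with a sequence (80%). It was in 3 of 6 promoters of regulators and STARD4 (50%) and in 1 of 5 of fatty acid enzymes (20%), under the share of all promoters. Those 5 were ACACA, SCD, FADS1, FADS2 and ELOVL6, so FASN was not among them. The Sp1 box was in 24 (92.3%), against 44.6%, and the E-box in 4 (15.4%), against 7.43%. The 27305 promoters were neither limited to expressed genes nor matched for GC content. Whether these contrasts are particular to lipid genes therefore cannot be told from this count. These matches are descriptions of the letters in the window, which is short, and carry no statement on binding.

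The libraries held 40808173 to 54185650 expected counts, and between 14033 and 14368 genes reached 1 TPM (a level corrected for transcript length and for depth). MATR3 (ENSG00000015479) stood at 95.2, 112 and 111 TPM in siMatrin3 libraries, against 186, 180 and 176 TPM in siCTRL libraries. Its log2 fold change was -0.93 (SE 0.065, 95% interval -1.07 to -0.79, edgeR adjusted p = 7.67e-05), so the targeted mRNA was lower in every siMatrin3 library. Of 10 epithelial and colorectal markers, 6 reached 1 TPM, among them EPCAM, KRT8, KRT18 and CDX2, with a summed level of 2691 to 2917 TPM in siMatrin3 and 2947 to 3097 TPM in siCTRL libraries. These ranges did not overlap. KRT18 was called lower in siMatrin3 (log2 fold change -0.15, edgeR adjusted p = 0.033), and KRT8 stood at -0.11 without a call (edgeR adjusted p = 0.175). The markers did not move together, since KRT19 (0.15), CDX2 (0.04) and EPCAM (0.03) had positive log2 fold changes and CDH1 had -0.02, all without a call. The part of the lower sum in the results on lipid genes was not tested. CDX1, CEACAM5, LGR5 and VIL1 stayed under 1 TPM in every library. The leukocyte, endothelial, hepatocyte and adipocyte markers each summed to at most 1.29 TPM in any library, and those of fibroblasts to 14.95 to 19.11 TPM in siMatrin3 and 13.69 to 16.17 TPM in siCTRL libraries, nearly all of it COL1A1. The leukocyte marker ITGAM was called higher in siMatrin3 (log2 fold change 0.85, edgeR adjusted p = 0.0477) at a level of at most 0.44 TPM, with TPM values that overlapped between the groups.

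All 29 genes were expressed, and they spanned a wide range of levels. Each reached at least 8 TPM in every library, from a low of 8.2 TPM for ACAT2 to a high of 407.58 TPM for SCD, with 337 to 90720 expected counts behind a value. Averaged over both groups, SCD, the desaturase that makes oleate from stearate, had 41.6 times the TPM of ACAT2, a thiolase that joins acetyl-CoA units at the entry to the pathway. FASN, FDPS, SREBF1 and SCD were at or above 100 TPM in all 6 libraries.

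**Figure D1:**
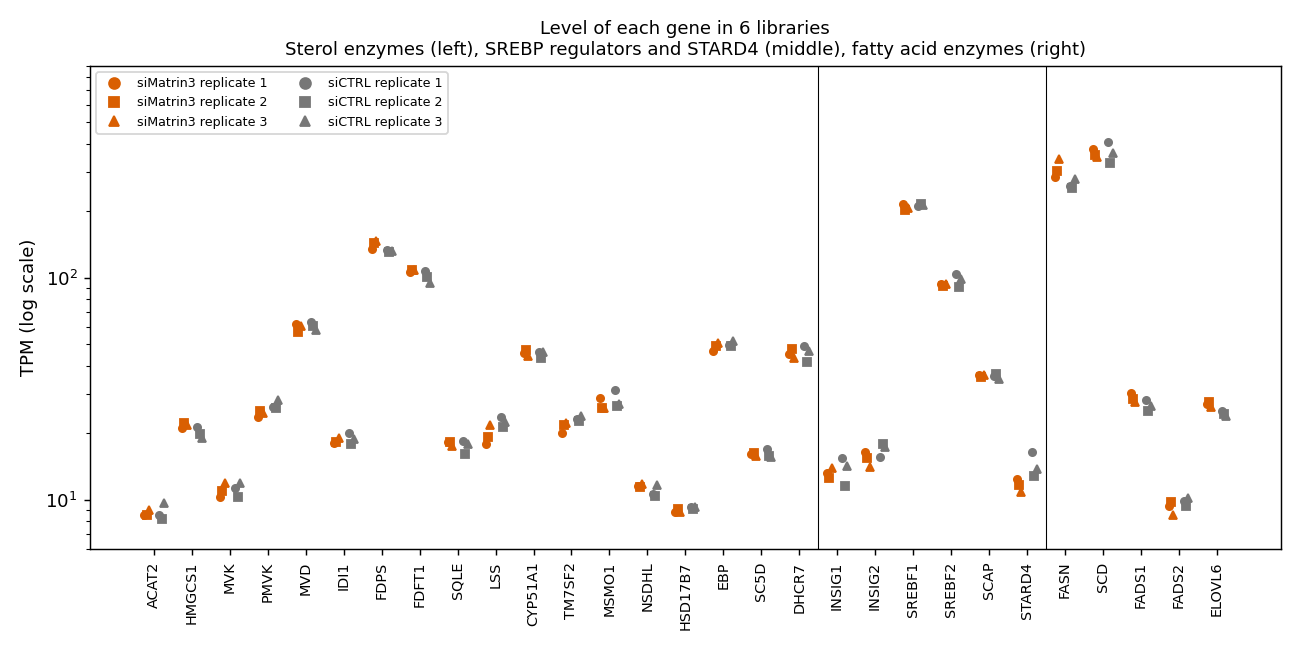
TPM on a log axis for the 29 genes, with siMatrin3 libraries in orange to the left of siCTRL libraries in grey for each gene and the replicate given by the shape of the symbol. Levels ran between 8.2 and 407.58 TPM, and the genes are spread far more widely than the 6 libraries of any gene.

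FASN was the only one of the 29 genes to pass the threshold. It was higher in siMatrin3, and no gene was called lower. edgeR's quasi-likelihood test at an adjusted p under 0.05 called 1849 of 16786 genes (11%), of which 847 were higher (5.05%) and 1002 lower (5.97%). The share among the 29 genes was 3.45%, and among the 10305 genes at least as abundant as the least abundant of them it was 13.3% (1369 genes). At an unadjusted p under 0.05 there were 5 of the 29 (17.2%), namely FDFT1, FASN and ELOVL6 on the higher side and LSS and STARD4 on the lower side, against 4364 of all genes tested (26.0%). The log2 fold change was positive for 15 genes and negative for 14, with a median of 0.0030 for the set and -0.0011 for all genes. The median size of the change regardless of sign was 0.058, against 0.107 over all genes.

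The intervals say how large a difference remains possible given the spread between these libraries. The SE of the log2 fold change ran between 0.039 for SREBF1 and 0.098 for INSIG1. Every one of the 29 intervals (95%) lay inside a change of 1.5-fold in either direction, which held for 73.9% of all genes tested and for 98.1% of the genes at least as abundant. For 27 of the 29 (93.1%) the interval lay inside 1.25-fold, against 55.1% of all genes and 84.7% of those at least as abundant. FASN and STARD4 were the exceptions. The CPM values (counts scaled by TMM to a common library size, used here for differences) of siMatrin3 and siCTRL libraries did not overlap for 6 of the 29 genes (PMVK, FDPS, LSS, SCAP, FASN and ELOVL6), while 31% of all genes did not overlap.

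**Figure D2:**
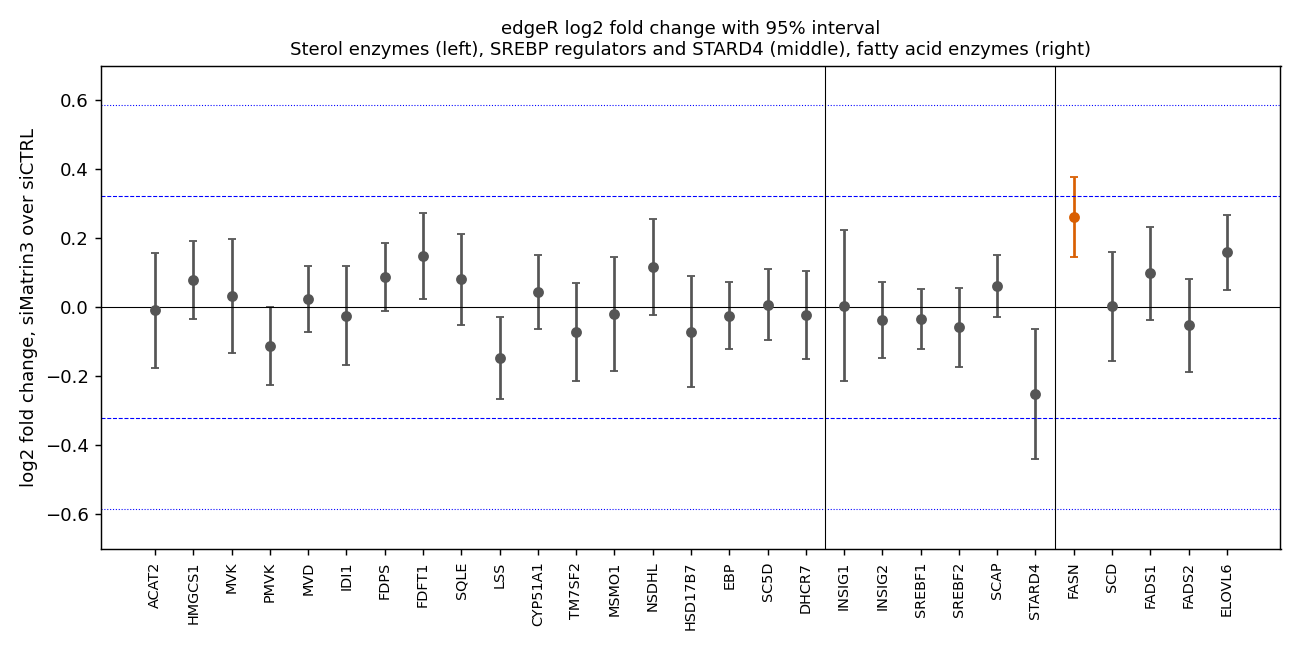
log2 fold change of siMatrin3 over siCTRL for each gene with its 95% interval from edgeR, the 1 gene past the threshold in orange, dashed lines at 1.25-fold and dotted lines at 1.5-fold. FASN stood at 0.26 and STARD4 at -0.25, and the other 27 intervals stayed between the dashed lines.

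The 18 sterol enzymes showed no called difference. A positive log2 fold change was found for 9 and a negative one for 9, the median was -0.00068, and the range ran between -0.15 for LSS and 0.15 for FDFT1. There were 2 under an unadjusted edgeR p of 0.05, FDFT1 and LSS, and 3 whose groups did not overlap in CPM. Over all genes 11% were called, 26.0% were under an unadjusted p of 0.05 and 31% did not overlap.

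In the mevalonate part, HMGCS1, which condenses acetyl-CoA with acetoacetyl-CoA, had 51.6, 49.2 and 48.0 CPM in siMatrin3 and 50.2, 44.2 and 46.3 CPM in siCTRL libraries. The groups overlapped, and its log2 fold change was 0.08 (95% interval -0.03 to 0.19, edgeR adjusted p = 0.362). MVK, mevalonate kinase, had 14.5, 15.3 and 17.3 CPM in siMatrin3 against 15.6, 14.5 and 15.9 CPM in siCTRL libraries, a log2 fold change of 0.03. PMVK, the kinase that follows, was lower in each siMatrin3 library (21.3, 22.7 and 22.2 CPM) than in any siCTRL library (23.4, 23.0 and 25.1 CPM). The gap between the nearest libraries was small, and the log2 fold change of -0.11 had an edgeR adjusted p of 0.196. MVD, which decarboxylates mevalonate diphosphate, and ACAT2 differed by log2 0.03 and -0.01.

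Among the enzymes that join isoprenoids into squalene, IDI1, an isomerase, differed by -0.02. FDPS, farnesyl diphosphate synthase, had 87.9, 95.4 and 92.8 CPM in siMatrin3 against 87.7, 86.9 and 85.2 CPM in siCTRL libraries. The nearest libraries of the groups almost touched, and the log2 fold change was 0.09 (edgeR adjusted p = 0.252). FDFT1 (ENSG00000079459), squalene synthase, had 148, 138 and 139 CPM in siMatrin3 against 138, 122 and 122 CPM in siCTRL libraries. Its log2 fold change of 0.15 (SE 0.056, 95% interval 0.02 to 0.27) had an edgeR adjusted p of 0.122, and siCTRL replicate 1 lay among the siMatrin3 libraries. Without that library the adjusted p was 0.0286 at a log2 fold change of 0.21, within a range of 0.0203 to 0.345 over the 16 alternatives.

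SQLE, squalene epoxidase, a controlled step of the pathway, had 39.8, 37.9 and 38.3 CPM in siMatrin3 against 39.2, 32.9 and 37.4 CPM in siCTRL libraries (log2 fold change 0.08, edgeR adjusted p = 0.435). LSS (ENSG00000160285) closes squalene epoxide into lanosterol, the first sterol of the pathway. It had 53.3, 58.5 and 60.9 CPM in siMatrin3 against 64.4, 61.4 and 65.4 CPM in siCTRL libraries. Its groups did not overlap in CPM, and the log2 fold change of -0.15 (SE 0.054, 95% interval -0.27 to -0.03) had an edgeR adjusted p of 0.108. In TPM the groups of LSS overlapped (17.84, 19.22 and 21.6 in siMatrin3 against 23.62, 21.3 and 22.3 in siCTRL).

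The enzymes after lanosterol stayed close to their control levels. CYP51A1, which removes a methyl group from lanosterol, had 110, 114 and 106 CPM in siMatrin3 and 110, 101 and 108 CPM in siCTRL libraries (log2 fold change 0.05). DHCR7, which makes cholesterol in the last reduction of the Kandutsch-Russell branch, had 87.4, 87.2 and 84.1 CPM in siMatrin3 and 93.9, 80.1 and 88.5 CPM in siCTRL libraries. All 3 siMatrin3 values of DHCR7 fell inside the spread of the controls (log2 fold change -0.02). TM7SF2 (-0.07), a sterol reductase, MSMO1 (-0.02), a methylsterol oxidase, NSDHL (0.12), a decarboxylating sterol dehydrogenase, and HSD17B7 (-0.07), a sterol ketone reductase, had edgeR adjusted p between 0.281 for NSDHL and 0.907 for MSMO1. EBP, an isomerase, and SC5D, a desaturase, differed by -0.02 and 0.01 on the log2 scale.

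The SREBP regulators and STARD4, 6 genes, also had no called member, with 2 positive and 4 negative log2 fold changes, a median of -0.03 and a range between -0.25 for STARD4 and 0.06 for SCAP. SREBF1 and SREBF2 encode SREBP-1 and SREBP-2. SREBF1 had 351, 330.0 and 347 CPM in siMatrin3 and 360, 349 and 342 CPM in siCTRL libraries, a log2 fold change of -0.03 (95% interval -0.12 to 0.05). SREBF2 had 389, 373 and 375 CPM in siMatrin3 and 421, 364 and 399 CPM in siCTRL libraries, a log2 fold change of -0.06 (95% interval -0.17 to 0.06). Both sets of values overlapped between the groups. SCAP, the escort protein, had 101, 99.7 and 101 CPM in siMatrin3 against 98.8, 95.9 and 94.4 CPM in siCTRL libraries. These did not overlap, yet the log2 fold change was 0.06 (edgeR adjusted p = 0.384). In TPM the groups of SCAP overlapped (36.55, 35.58 and 36.46 in siMatrin3 against 36.02, 36.87 and 34.92 in siCTRL).

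INSIG1, itself a well known SREBP target and a retention factor for SCAP, was the most variable gene of the set. It had 28.8, 24.8 and 27.6 CPM in siMatrin3 and 30.8, 22.4 and 27.5 CPM in siCTRL libraries. The siMatrin3 values lay within the range of the controls, and the log2 fold change was 0.00 with a wide interval (-0.21 to 0.22). INSIG2, the second retention factor, differed by -0.04 (95% interval -0.15 to 0.07).

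STARD4 (ENSG00000164211), a soluble carrier of sterols between membranes and an SREBP target, had 32.0, 29.5 and 28.5 CPM in siMatrin3 against 41.1, 31.8 and 34.0 CPM in siCTRL libraries. The lowest control lay just under the highest siMatrin3 library, and the log2 fold change of -0.25 (SE 0.085, 95% interval -0.44 to -0.06) had an edgeR adjusted p of 0.0868. In TPM the groups did not overlap (12.4, 11.7 and 10.9 in siMatrin3 against 16.4, 12.8 and 13.7 in siCTRL). The estimate leaned on the controls. It was -0.13 without siCTRL replicate 1 (edgeR adjusted p = 0.201) and -0.33 without siCTRL replicate 2 (edgeR adjusted p = 0.0370), and the adjusted p ran between 0.000256 and 0.267 over the 16 alternatives.

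Of the fatty acid enzymes 5 had values, 4 with a positive and 1 with a negative log2 fold change, a median of 0.10 and a range between -0.05 for FADS2 and 0.26 for FASN. FASN (ENSG00000169710, chromosome 17) encodes fatty acid synthase, the enzyme that builds palmitate. It had 1109, 1114 and 1226 CPM in siMatrin3 libraries, against 1002, 892 and 982 CPM in siCTRL libraries. Every siMatrin3 library was above every siCTRL library. FASN rose by 19.9% (95% interval 10.6% to 29.96%), or 0.26 on the log2 scale (SE 0.052), at an edgeR adjusted p of 0.0122. In these bulk libraries a larger share of cells with the mRNA and more of it per cell cannot be told apart.

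On the TPM scale FASN had 284, 302 and 343 in siMatrin3 against 259, 252 and 277 in siCTRL libraries, again without overlap. The call was kept in 13 of 16 alternatives, with adjusted p between 0.0122 and 0.0495 when any single library was left out, but not with a transcript length offset in edgeR (adjusted p = 0.0586) nor with limma on log2(TPM + 1) (adjusted p = 0.130) or log2(TPM + 0.1) (adjusted p = 0.128), settings that also called fewer of all genes, within a range of 1.54e-08 to 0.130 over the 16. The log2 fold change stayed between 0.21 and 0.31.

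ELOVL6 (ENSG00000170522), which lengthens palmitate to stearate, came next. It had 81.7, 79.0 and 75.0 CPM in siMatrin3 against 73.5, 68.2 and 69.4 CPM in siCTRL libraries, with no overlap. Its log2 fold change was 0.16 (SE 0.049, 95% interval 0.05 to 0.27) at an edgeR adjusted p of 0.0640. DESeq2 (adjusted p = 0.0315) and the fit without siCTRL replicate 1 (edgeR adjusted p = 0.0435) put it past the threshold, and the range over the 16 alternatives was 0.0173 to 0.201.

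SCD, the most abundant gene of the set, did not pass the test. It had 1619, 1502 and 1486 CPM in siMatrin3 and 1717, 1356 and 1524 CPM in siCTRL libraries. The siMatrin3 values lay within the control range, and the log2 fold change was 0.00 (95% interval -0.16 to 0.16, edgeR adjusted p = 0.986). The difference between the changes of FASN and SCD was not tested. FADS1 and FADS2, neighbouring desaturases of polyunsaturated fatty acids, had log2 fold changes of 0.10 (95% interval -0.04 to 0.23) and -0.05 (95% interval -0.19 to 0.08).

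A shared order ran between the control libraries. All 29 genes had a higher CPM in siCTRL replicate 1 than in siCTRL replicate 2, with a median gap of 0.12 on the log2 scale. Among 16694 genes with a count in every library 51.6% had that order, with a median gap of 0.0067. This order was noticed after the values were seen and is given as a description. The number was 29 with RLE scaling as well, and 27 with upper quartile scaling or library size alone, when ACAT2 and FDPS turned round. siCTRL replicate 2 was the lowest of the 3 controls for 24 of the 29 genes (82.8%), against 38.3% of all genes, and siCTRL replicate 1 the highest for 23 (79.3%), against 36.2%.

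**Figure D3:**
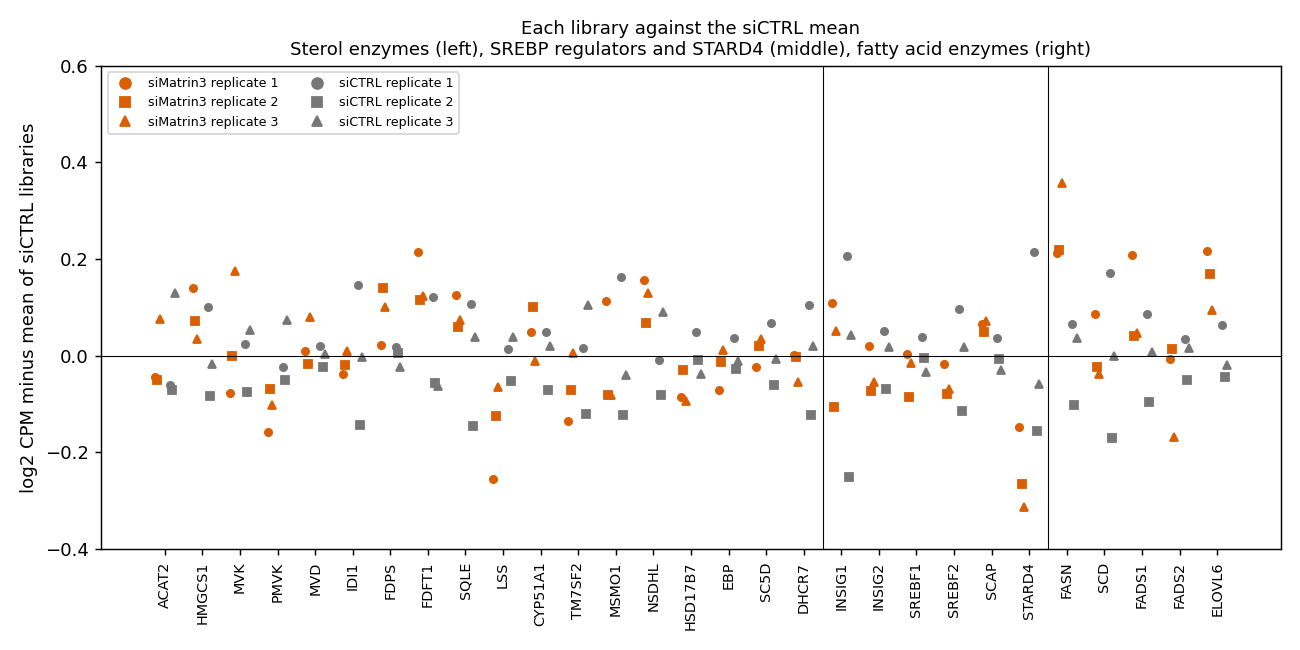
log2 CPM of each library minus the mean of the siCTRL libraries for the 29 genes, siMatrin3 in orange to the left of siCTRL in grey and the replicate given by the shape. The grey circles of siCTRL replicate 1 lie above the grey squares of siCTRL replicate 2 for all 29 genes, by 0.46 for INSIG1, and the 3 orange symbols of FASN lie above its grey ones.

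The gap between those 2 controls was widest at 0.46 for INSIG1, 0.37 for STARD4, 0.34 for SCD, 0.29 for IDI1, 0.28 for MSMO1 and 0.25 for SQLE on the log2 scale. It was narrowest for ACAT2 (0.01), FDPS (0.01) and PMVK (0.03). For 25 of the 29 genes (86.2%) the range of the 3 controls was wider than the difference between the groups, against 67.7% of all genes. The exceptions were FDPS, LSS, FASN and ELOVL6. All 3 siMatrin3 values lay within the control range for 8 genes (27.6%), against 14.1% of all genes. The median range was 0.11 among siMatrin3 and 0.17 among siCTRL libraries for these genes, and 0.15 and 0.16 over all genes. In the 9 lists of neighbouring pathways the share with siCTRL replicate 1 above siCTRL replicate 2 ran between 42.1% (fatty acid oxidation) and 85.7% (SREBP cleavage and retention). SREBP cleavage and retention stood at 50% with library size alone. The median gap in these lists ran between -0.036 for fatty acid oxidation and 0.129 for sterol transport and esterification, so its size was not particular to the 29 genes. siMatrin3 replicate 1 was above siMatrin3 replicate 2 for 17 of the 29 (58.6%), against 49.3% of all genes.

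siCTRL replicate 1 was the deepest of the controls (52922637 expected counts) and siCTRL replicate 2 the shallowest (40808173). Across all genes that pair also differed most, with a chi-square per degree of freedom of 18.4 against 4.76 to 10.1 for the other pairs of replicates. The part of depth in the shared order of the 29 genes was not tested.

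The class means show the same thing by library. The sterol enzymes stood at -0.0031, 0.0052 and 0.025 in siMatrin3 and at 0.05, -0.07 and 0.02 in siCTRL libraries, on the log2 CPM scale relative to the siCTRL mean. The regulators and STARD4 stood at 0.01, -0.09 and -0.06 in siMatrin3 and at 0.11, -0.10 and -0.01 in siCTRL libraries. Each of these pairs of groups overlapped. The fatty acid enzymes stood at 0.14, 0.08 and 0.06 in siMatrin3 against 0.08, -0.09 and 0.01 in siCTRL libraries, where siCTRL replicate 1 lay among the siMatrin3 values. Leaving that control out moved the class medians of the log2 fold change to 0.04 for sterol enzymes, -0.01 for regulators and STARD4 and 0.14 for fatty acid enzymes, and leaving out siCTRL replicate 2 moved them to -0.03, -0.09 and 0.05. Together the 29 genes took 0.176%, 0.175% and 0.179% of all TPM in siMatrin3 and 0.180%, 0.165% and 0.174% in siCTRL libraries.

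**Figure D4:**
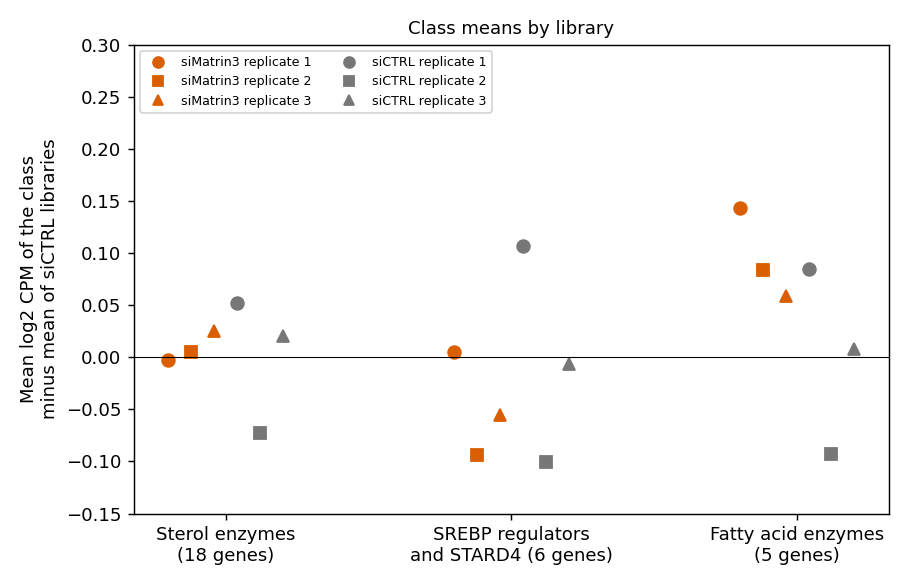
Mean log2 CPM of each class in each library minus the mean of the siCTRL libraries, siMatrin3 in orange to the left of siCTRL in grey and the replicate given by the shape. siCTRL replicate 2 is the lowest symbol of every class, at -0.07 for sterol enzymes, and the highest is siMatrin3 replicate 1 for the fatty acid enzymes, at 0.14.

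Because Matrin3 acts on splicing, the transcript mix of each gene was examined through its transcript length averaged by abundance, a readout separate from the level. A short exon alters such a mean length little, so this readout cannot show whether the splicing of single exons changed. Exon inclusion, which the paper measured event by event, was not examined here. Over all genes 1 of 12152 (0.00823%) passed limma's test at an adjusted p under 0.05. Of the 28 genes of the set that could be tested (PMVK could not), none passed, none had an unadjusted limma p under 0.05, and none differed by as much as 0.1 on the log2 scale. The largest difference was 0.08 for INSIG2 (95% interval -0.15 to 0.30). For FASN the mean length was 4870, 4654 and 4522 bases in siMatrin3 and 4895, 4568 and 4514 bases in siCTRL libraries. These lengths, by which TPM but not CPM is corrected, differed more between replicates than between the group means.

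Lists of genes around these pathways held 1 to 3 called members each. The lists were chosen with earlier results of these data known, so their shares are descriptions. Of 12 other sterol synthesis and uptake genes, 3 were higher and 0 lower (25%). The share was 11% of all genes and 13.3% of those at least as abundant as the least abundant of the 29. The 3 called genes are named next. These were SCARB1, a receptor for high-density lipoprotein (log2 fold change 0.23, edgeR adjusted p = 0.0132), ACAT1, a mitochondrial thiolase (0.19, adjusted p = 0.0190), and TMEM97, an endoplasmic reticulum protein of sterol handling (0.20, adjusted p = 0.0198). Over the 16 alternatives the call was kept in 12 for SCARB1, 9 for ACAT1 and 8 for TMEM97. Of 14 genes for SREBP cleavage and retention, 1 was higher and 1 lower (14.3%, against 11% of all genes). The higher was RNF145, a ubiquitin ligase that acts on SCAP (0.19, edgeR adjusted p = 0.0231), with the call kept in 9 of 16 alternatives.

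The lower was ERLIN1 (ENSG00000107566), a membrane protein of the endoplasmic reticulum known to bind cholesterol and to restrain SREBP activation. It had 23.9, 27.3 and 28.0 TPM in siMatrin3 against 44.9, 42.3 and 45.9 TPM in siCTRL libraries. All siMatrin3 libraries were far under the controls, with a log2 fold change of -0.70 (SE 0.056, 95% interval -0.82 to -0.57, edgeR adjusted p = 0.00019), and the call held in 16 of 16 alternatives.

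Of 10 genes for sterol export and the LXR receptors, 1 was higher and 0 lower (10%, against 11% of all genes). NR1H3, which encodes the sterol-sensing receptor LXR alpha, had 17.0, 17.2 and 19.0 TPM in siMatrin3 against 14.3, 13.1 and 12.4 TPM in siCTRL libraries (0.40 on the log2 scale, SE 0.070, with 0.0064 as edgeR's adjusted p). The groups did not overlap, and the call held in 16 of 16 alternatives. Its exons overlap those of ACP2 on the other strand.

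Sterol transport and esterification had 1 higher (OSBPL9, log2 fold change 0.15) and 2 lower genes of 15 (GRAMD1C, -0.45, and LIPA, the lysosomal acid lipase, -0.22). The isoprenoid branch had 0 higher and 1 lower of 15 (RABGGTA, -0.20), and acetyl-CoA and NADPH supply 0 higher and 1 lower of 13, which is not named here. Other fatty acid synthesis, elongation and desaturation had 1 higher (HACD3, 0.15) and 2 lower of 16 (ELOVL7, -0.25, and SCD5, a second stearoyl-CoA desaturase, -0.21). Glycerolipid synthesis had 1 higher (CHKA, choline kinase, 0.15) and 1 lower of 22 (ACSL5, -0.13). Fatty acid oxidation had 1 higher and 0 lower of 19, which is not named here. The called shares of these lists, 20%, 6.67%, 7.69%, 18.8%, 9.09% and 5.26%, stand against 11% of all genes tested. The genes named in this paragraph each lost the call under at least 6 of the 16 alternatives.

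Some values may hold reads of a neighbour or a copy. By the GENCODE annotation TM7SF2 shares same-strand exon sequence with VPS51, and FADS2 with FEN1. ACAT2, MVK, CYP51A1, SREBF1, SREBF2, STARD4, IDI1, FDPS, HMGCS1, FDFT1, LSS, FADS1 and FADS2 overlap a gene on the other strand, and whether strand was used in counting is not given in the sources used here. HSD17B7 and FDPS have pseudogene copies, between which RSEM divides reads by estimate.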

How the data were processed

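Poly(A) RNA of 3 siMatrin3 and 3 siCTRL libraries had been read in pairs from a stranded kit. Groups came from the labels. Reads had been trimmed, aligned to hg19 and quantified, for which the submitters' processing notes list cutadapt, STAR 2.5.1 and RSEM (the methods state a different STAR release). For each library the authors deposited expected counts, which are estimated counts with shared reads divided among transcripts, TPM, which the authors corrected for length and set to an equal sum per library, and a transcript length averaged by abundance. The tables held 56632 genes, of which 88.3% had a symbol, and genes without a symbol took 0.941% of counts.

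Expected counts were rounded. After filterByExpr and TMM scaling, 16786 genes entered a two-sided quasi-likelihood test without covariates (edgeR 4.0.16 in R 4.3.3), with Benjamini-Hochberg adjusted p under 0.05 as threshold. The SE was the log2 fold change over the square root of F. The common biological coefficient of variation was 5.98%. Log2 transcript length was tested with limma 3.58.1 in genes with at least 2 transcripts and 50 counts in every library. DESeq2 1.42.0, which the study used in another version, was an alternative, as were RLE and upper quartile scaling, other filters, a replicate block, a transcript length offset, limma on log2 TPM with pseudocounts of 1 and 0.1, leaving out libraries, and a threshold of 0.01. The steps were tested on simulated data. Replicates differed beyond sampling noise. Exon overlaps came from GENCODE release 44 (GRCh38, not the build of the tables).

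The members and lists were chosen with earlier results of these data known. Named genes were MATR3, the members, markers and each wider-list gene past the threshold, up to 6 per list. Some genes that the rule names are not reported here.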

Additional observations from a re-analysis of the deposited data

How the results depend on the processing

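The members called, 1 in the edgeR fit, were 4 with no filter (2595 of all genes), 2 without replicate 1 of both groups, 3 with DESeq2 (1814 of all genes), 0 once transcript length was an offset, 0 by limma for log2(TPM + 1), 0 by limma for log2(TPM + 0.1), 0 at an adjusted p under 0.01, and 1 to 3 when a single library was left out. Over all genes the 1849 calls became 1216 without replicate 1 of both groups, 706 after the offset, 437 and 429 by limma for TPM at pseudocounts of 1 and 0.1, 561 at 0.01, and 759 to 1599 with a single library left out. FASN was among the members called in every fit that called any. FDFT1, STARD4 and ELOVL6 passed in 4 alternatives each and LSS in 1, and the 24 other members in none. MATR3 stayed past the threshold in 16 of 16, between -0.98 and -0.76. The median of all genes moved to -0.02 at most under any scaling. With the replicate block, 5 members were called (FDFT1, LSS, STARD4, FASN and ELOVL6) and 2716 genes. The replicate numbers were not taken as pairs, and the labels do not say whether same-numbered libraries belong together. Deviations of same-numbered libraries correlated at 0.177, 0.0896 and 7.21e-05, and those of differently numbered libraries between -0.145 and 0.0641. The same-numbered control correlated best for siMatrin3 replicates 1 and 2, while siMatrin3 replicate 3 correlated best with siCTRL replicate 2. A shared structure of replicates was not tested, and the count of 1 member holds for the fit without a block. No member was called for transcript length under any alternative run. The scalings of the order between controls were chosen after seeing the data. With 3 libraries a group and SEs of 0.039 to 0.098, small changes could be missed in single genes, and larger ones where the SE was larger.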
